A study of Mus musculus with 6 samples.

Results

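Expression of 34 imprinted genes was examined in the hippocampus of mice given repeated injections of substance P (SP), a neuropeptide of the tachykinin family. The genes were chosen by name, as genes under parental imprinting in mouse that are expressed in brain, and all 34 were found among the 55421 genes of the count table. Bulk RNA-seq was available for 3 wild-type male C57BL/6N mice, aged 8 to 10 weeks, that received SP (10 µM, 100 µL) under the skin for 14 days and for 3 wild-type males of the same strain and age that received the same volume of saline (vehicle). Each mouse gave 1 poly-A selected, stranded library, and the labels give each replicate number as a batch that holds 1 SP and 1 vehicle mouse. Groups follow these labels, and the design has no targeted gene that would check them. Every direction below rests on the group names given with the samples and would reverse if these were exchanged. The paper reports the myelin genes *Mag* and *Mbp* as lower after SP. By the labels used here, 9 other markers of oligodendrocytes, the cells that make myelin, summed higher in SP mice. Beyond these genes, the fold changes in the paper's supplementary list of differentially expressed genes appeared opposite in sign to those computed here by the labels. The reason for this conflict of direction was not tested.

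Imprinted genes are transcribed mainly from the copy inherited from one parent, and the silent copy is usually marked by DNA methylation that was laid down in the germ line at an imprinting control region. They lie in clusters, called domains, in which protein-coding genes share control elements with long noncoding RNAs, some of which run antisense to a neighbour and silence it on the same chromosome. Brain is a tissue with many active imprinted genes, and some are imprinted only there or only in neurons. The reads were not split by parental allele, so the parent named for each gene below is textbook knowledge and the values are totals over both copies. In bulk tissue, fewer cells of a type and less RNA per cell cannot be told apart.

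The libraries held 22349964 to 27605935 counts, and 27 of the 34 genes had at least 100 counts in every library. Expression is given as CPM, counts relative to the library total after TMM scaling, which corrects for library size and composition. A pair of SP libraries stood apart in markers of other tissue. In the library labelled SP 1, 10 markers of choroid plexus, the secretory epithelium of the ventricles, summed to 180 CPM, against 2851 to 4800 CPM in the other 5 libraries. In the library labelled SP 2, 7 pineal markers summed to 58.0 CPM against at most 2.90 CPM elsewhere, 9 oligodendrocyte markers to 3502 CPM against 2104 to 2631 CPM, and 8 markers of GABAergic neurons to 544 CPM against 678 to 757 CPM. The library labelled vehicle 2 stood apart as well, with 8 thalamus markers at 135 CPM against 97.0 to 109 CPM and 7 cerebellum markers at 64.5 CPM against 25.9 to 46.3 CPM elsewhere. No gene of these marker lists was at 0 in every library. The 12 markers of hippocampal principal neurons summed to 2011 to 2150 CPM in vehicle and 2120 to 2448 CPM in SP libraries, so the labelled tissue was present in all 6.

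Imprinted transcripts spanned a wide range of levels in vehicle hippocampus. Levels were compared between genes as CPM per kb of exon length, and *Meg3*, a maternally expressed noncoding RNA, was highest at 330 ± 15.6 CPM per kb (SD, n = 3). It was followed by *Snrpn*, a splicing protein gene, at 264 ± 3.74, the neuronal membrane protein gene *Nnat* at 198 ± 3.77, and the nucleosome assembly protein gene *Nap1l5* at 135 ± 6.53 CPM per kb. At the other end, *H19*, a noncoding RNA of fetal tissues, had 0.153 ± 0.0510 CPM per kb, and *Asb4*, *Mkrn3*, *Airn* and *Kcnq1ot1* had 0.221 to 0.366 CPM per kb. Of 33 neighbouring ranks, 16 had overlapping vehicle values, among them every neighbouring pair from *Cdkn1c* through *Mest*, *Ube3a*, *Peg10* and *Grb10* to *Plagl1*. When the longest transcript was used in place of all exons, *Gnas*, which encodes the stimulatory G protein alpha subunit, moved from rank 5 to rank 2 with 288 CPM per kb. The largest move was 7 ranks, by the noncoding RNA *Snhg14* from rank 23 to rank 16, so the order depended on the length used.

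**Figure D1:**
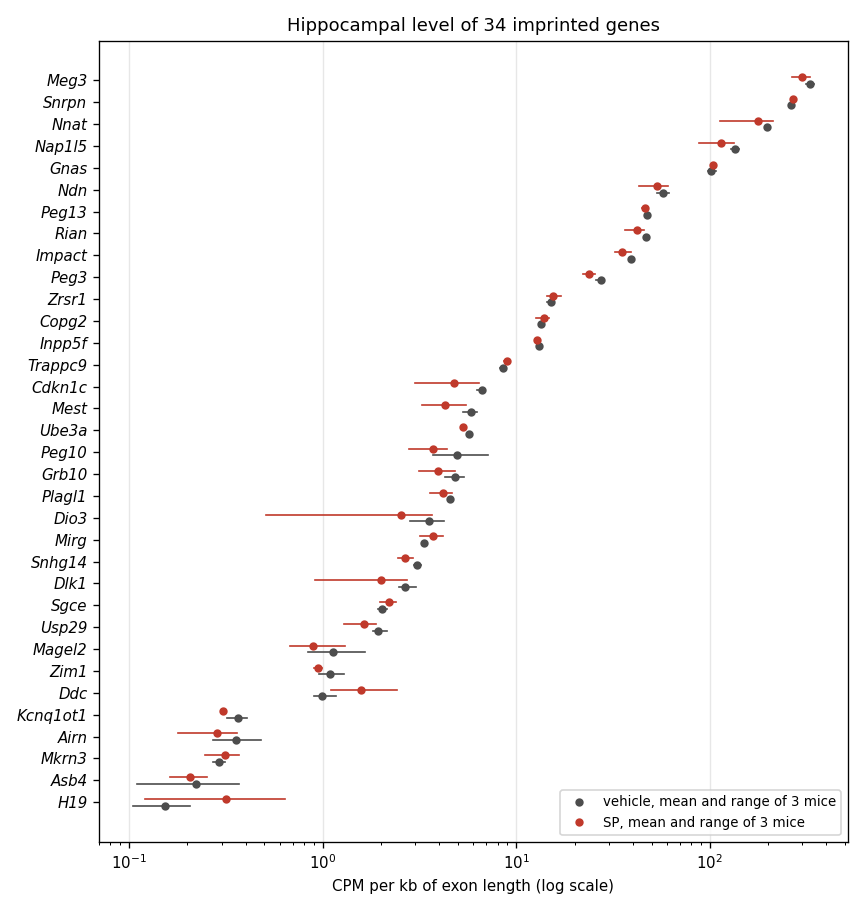
Level of each imprinted gene in CPM per kb of exon length on a log scale, as the mean (point) and range (line) of 3 vehicle and 3 SP mice, in the order of the vehicle level. *Meg3* is highest at 330 and *H19* lowest at 0.153 CPM per kb in vehicle, and the SP range of *Dio3* and *Dlk1* reaches far below the vehicle range.

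To ask whether SP changed these genes, SP and vehicle libraries were compared by edgeR's quasi-likelihood test over 17069 genes with the replicate number as a block. All 34 imprinted genes were tested and 0 were called at a false discovery rate (FDR, Benjamini-Hochberg) below 0.1 with an absolute log2 fold change above 0.3, a call made for 0.0293% of all tested genes. At an unadjusted p below 0.05, 6 of the 34 were lower in SP (*Mest*, *Kcnq1ot1*, *Peg3*, *Snhg14*, *Cdkn1c* and *Impact*), against 5.59% of all tested genes, and 0 were higher, against 4.48%. DESeq2 with the same block gave 0 calls among the 34 as well, against 0.211% of all tested genes. By DESeq2, 8 of the 34 were lower at an unadjusted p below 0.05, against 2.31% of all tested genes, and 0 were higher, against 1.82%. The groups did not overlap for 5 genes that were lower in SP (*Rian*, *Ube3a*, *Snhg14*, *Peg3* and *Kcnq1ot1*), against 9.03% of all tested genes, and for 0 that were higher, against 9.19%.

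The median log2 fold change (SP relative to vehicle) of the 34 genes was −0.15, against 0.0015 for all tested genes, and 24 of the 34 were below 0. The second replicate pair carried most of this difference. Its median log2 ratio over the 34 genes was −0.34, against −0.055 in the first pair and −0.0080 in the third. The library labelled SP 2 was the lowest of all 6 for 17 of the 34 genes, while it was lowest for 21.7% of all tested genes, and the library labelled vehicle 2 was the highest for 15, against 13.5%. Both libraries of this pair stood apart in markers of other tissue, as given above, and the part of that tissue was not tested. Without the second pair the median of the 34 genes was −0.018. The median coefficient of variation was 4.92% in vehicle and 13.2% in SP mice, against 5.86% and 7.95% over all tested genes. The oligodendrocyte markers summed to 2104 to 2402 CPM in vehicle and 2436 to 3502 CPM in SP mice. Of these markers, 7 of 9 were higher at an unadjusted p below 0.05, the opposite direction to that of *Mag* and *Mbp* in the paper. Of the 12 markers of hippocampal principal neurons, 6 were higher in SP and 0 lower at that threshold, and their sum was highest in SP 2, at 2448 CPM. Over all tested genes 4.48% were higher and 5.59% lower. The part of these marker differences in the values of the imprinted genes was not tested. Intervals were wide for many genes: the 95% interval of the log2 fold change lay within ±0.3 for 8 of the 34 and within ±1 for 27.

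**Figure D2:**
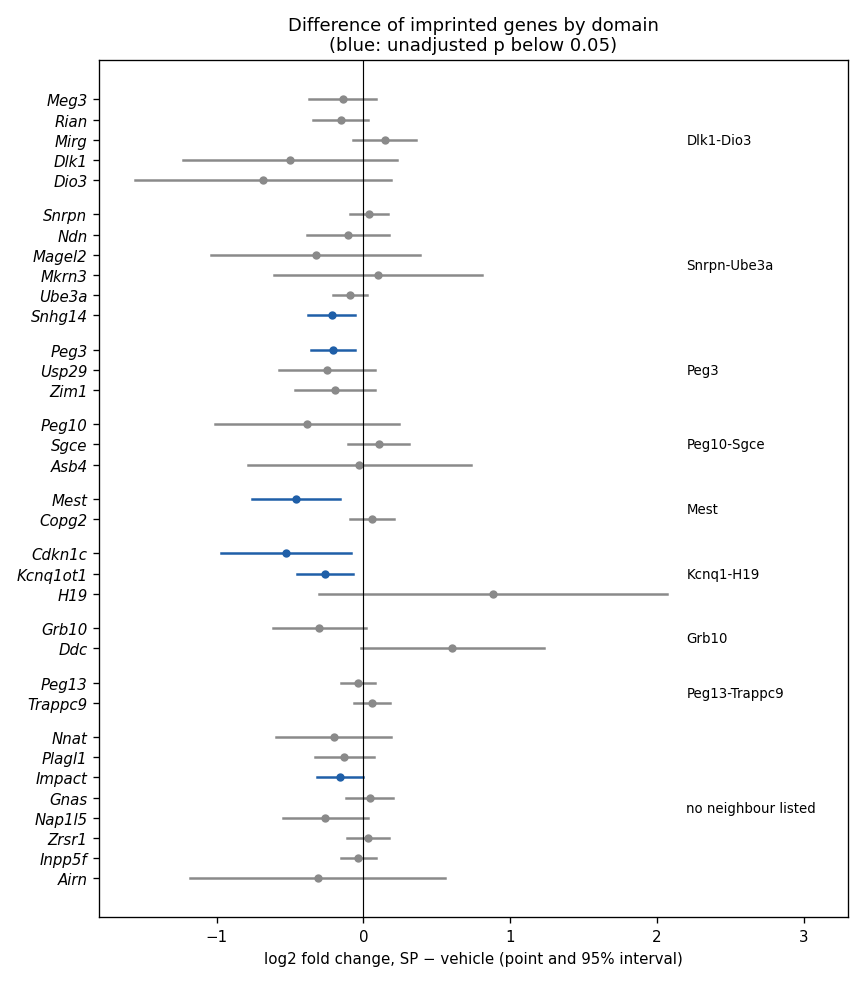
Log2 fold change (SP relative to vehicle) of each imprinted gene with its 95% interval from edgeR, grouped by domain. The 6 genes in blue, at an unadjusted p below 0.05, all lie to the left of 0, and the interval of *H19* is the widest, from −0.30 to 2.07.

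*Mest* had the lowest p of the 34. It encodes an alpha/beta hydrolase-like protein of the endoplasmic reticulum and is expressed from the paternal copy, and it lies at chr6:30723547-30748465 (GRCm38, plus strand). Its values were 23.3, 20.8 and 24.8 CPM in vehicle mice 1, 2 and 3 and 12.8, 16.4 and 21.8 CPM in SP mice 1, 2 and 3. Each SP mouse was below its vehicle partner, but the groups overlapped, since SP 3 was above vehicle 2. The log2 fold change was −0.46 ± 0.13 (SE, here and in later fold changes, 95% interval −0.76 to −0.16, unadjusted p = 0.00805, edgeR FDR = 0.380). *Copg2*, a coat protein gene of vesicle traffic whose 3′ end overlaps that of *Mest* by 912 bp on the opposite strand, had 69.1, 69.1 and 67.6 CPM in vehicle and 64.8, 75.9 and 74.0 CPM in SP mice. Its log2 fold change was 0.059 (95% interval −0.094 to 0.21).

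*Cdkn1c*, which encodes the cyclin-dependent kinase inhibitor p57 and is expressed from the maternal copy, had the same library at its lowest point. It had 13.9, 12.8 and 13.9 CPM in vehicle and 6.14, 9.84 and 13.02 CPM in SP mice, a log2 fold change of −0.53 ± 0.19 (unadjusted p = 0.0251, edgeR FDR = 0.433). SP 1 and SP 2 lay below all vehicle mice and SP 3 lay within the vehicle range. Both *Mest* and *Cdkn1c* were lowest in SP 1, the library in which choroid plexus markers were 180 CPM, and *Ttr*, the most abundant of these markers, had 125 CPM there against 2542 to 4300 CPM elsewhere. The part of choroid plexus in these values was not tested. Without SP 1 and without the block, *Mest* was at −0.27 (unadjusted p = 0.0556) and *Cdkn1c* at −0.25 (unadjusted p = 0.0764). Without the whole first pair *Cdkn1c* was at −0.23 (unadjusted p = 0.115), and without SP 2 and the block it was at −0.51 (unadjusted p = 0.0631).

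The *Mest* gene also carries a microRNA hairpin in an intron, Mir335. Its mature products are shown because the table holds no reads for them, and their seed (bases 2 to 8) is in capitals. The sequences are from RefSeq and lie on the strand of *Mest*.
miR-335-5p: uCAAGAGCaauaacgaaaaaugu
miR-335-3p: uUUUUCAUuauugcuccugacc

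The promoter of *Mest* is shown as the RefSeq window of 300 bases, 250 before and 50 after a transcription start, on GRCm38. The window with the most CpG was taken for each gene that has several. Capitals mark TGCCGC, the methylation-dependent site of the imprint-keeping zinc finger protein ZFP57, on either strand. Of the 27 imprinted genes with such a window, 9 (33.3%) held at least 1 match, against 12.2% of 27025 genes, and *Mest* and *Nap1l5* held 2 each. TGCCGC itself holds a CpG, and the imprinted windows had a median of 13 CpG against 8 over all genes. The part of this in the count of matches was not tested. Another motif that was searched, GCCATCTT of the factor YY1, was in 1 imprinted window (3.70%) and in 2.92% of all genes. A match is a description of these letters and no binding or methylation was measured.
Mest promoter, chr6:30737800-30738099, plus strand: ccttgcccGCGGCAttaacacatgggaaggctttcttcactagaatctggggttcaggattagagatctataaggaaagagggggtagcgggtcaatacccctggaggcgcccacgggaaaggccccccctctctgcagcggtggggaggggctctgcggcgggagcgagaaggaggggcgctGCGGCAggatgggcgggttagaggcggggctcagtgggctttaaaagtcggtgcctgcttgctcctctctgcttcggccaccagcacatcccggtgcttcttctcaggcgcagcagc

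In the *Peg3* domain on chromosome 7, all 3 genes had a log2 fold change below 0. *Peg3*, a paternally expressed zinc finger gene at chr7:6703892-6730431 (minus strand), had 345, 380 and 366 CPM in vehicle and 311, 295 and 341 CPM in SP mice. All SP mice lay below all vehicle mice. Its log2 fold change was −0.21 ± 0.065 (95% interval −0.36 to −0.055, unadjusted p = 0.0144, edgeR FDR = 0.412), and the unadjusted p was below 0.05 in all 13 other settings of the test, from 0.00139 to 0.0477. Without the second pair its log2 fold change was −0.13. *Usp29*, a deubiquitinase gene that starts 147 bp away on the other strand and is also paternal, had 32.8, 38.8 and 33.3 CPM in vehicle and 31.4, 23.4 and 34.2 CPM in SP mice. SP 2 was the lowest and SP 3 lay inside the vehicle range (log2 fold change −0.25, 95% interval −0.58 to 0.077). *Zim1*, a maternally expressed zinc finger gene, had 8.38, 10.4 and 7.69 CPM in vehicle and 8.01, 7.72 and 7.32 CPM in SP mice, and its groups overlapped (−0.19, 95% interval −0.46 to 0.082).

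The *Peg3* promoter is shown because it lies between this divergent pair and shares 263 of its 300 bases with the *Usp29* window. It held 0 matches to TGCCGC. Capitals mark CCAAT on either strand (ATTGG when read on this strand), the core bound by the general factor NF-Y, which was searched after the *Kcnq1ot1* window had been read. CCAAT was present in 10 of the 27 imprinted windows (37.0%) and in 37.4% of all genes. No match to either of these motifs overlapped one of the other in the windows shown.
Peg3 promoter, chr7:6730370-6730669, minus strand: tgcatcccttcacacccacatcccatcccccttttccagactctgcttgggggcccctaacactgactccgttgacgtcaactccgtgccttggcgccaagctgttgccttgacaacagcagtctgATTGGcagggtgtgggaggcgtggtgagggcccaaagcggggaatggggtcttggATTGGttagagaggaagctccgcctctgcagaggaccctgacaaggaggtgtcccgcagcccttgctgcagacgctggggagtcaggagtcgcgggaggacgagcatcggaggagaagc

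In the *Kcnq1* domain, *Kcnq1ot1*, a long noncoding RNA of the paternal copy that runs antisense inside *Kcnq1* and silences its neighbours, had 34.3, 29.9 and 37.8 CPM in vehicle and 29.5, 27.7 and 27.7 CPM in SP mice. All 3 SP mice were below the lowest vehicle mouse. The log2 fold change was −0.26 ± 0.081 (95% interval −0.45 to −0.072, unadjusted p = 0.0135, edgeR FDR = 0.411). Without the third pair it was −0.17 (unadjusted p = 0.0960). The gene lies at chr7:143203458-143296549 on the minus strand, 93092 bases without a spliced exon, so its level per kb was only 0.366 ± 0.0425 CPM. *Kcnq1*, the potassium channel gene on the other strand, had between 8 and 15 counts in each library, and *Cdkn1c*, a gene that *Kcnq1ot1* is known to silence, was described with *Mest* above. *H19* had 0.258, 0.364 and 0.508 CPM in vehicle and 0.298, 1.58 and 0.449 CPM in SP mice. SP 2 was well above the other 5 libraries, and without it and without the block the log2 fold change moved from 0.88 to −0.036.

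The *Kcnq1ot1* window held CCAAT 3 times on its own strand, marked in capitals, and TGCCGC 0 times.
Kcnq1ot1 promoter, chr7:143296498-143296797, minus strand: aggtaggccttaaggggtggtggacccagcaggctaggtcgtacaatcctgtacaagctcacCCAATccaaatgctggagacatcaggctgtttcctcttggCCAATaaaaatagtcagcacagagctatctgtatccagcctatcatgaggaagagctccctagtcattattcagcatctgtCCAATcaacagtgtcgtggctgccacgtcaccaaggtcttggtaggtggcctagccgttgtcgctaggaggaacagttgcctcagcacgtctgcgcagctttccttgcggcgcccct

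**Figure D3:**
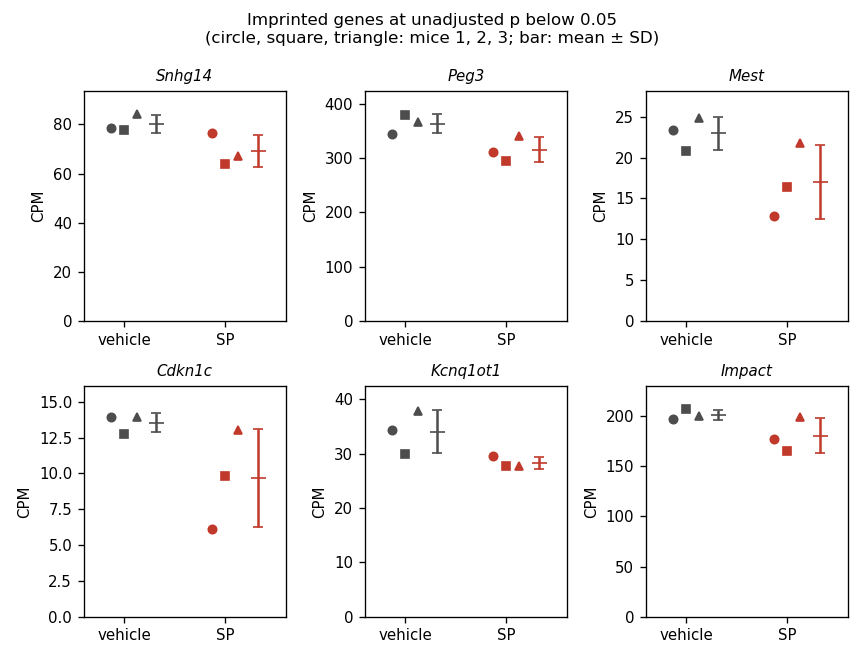
CPM of the 6 imprinted genes at an unadjusted p below 0.05 in each mouse (circle, square and triangle for mice 1, 2 and 3), with the mean ± SD beside them. SP values of *Snhg14*, *Peg3* and *Kcnq1ot1* lie below all vehicle values, while *Mest* and *Cdkn1c* reach the vehicle range in SP 3 and are lowest in SP 1.

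The *Snrpn-Ube3a* domain is the mouse counterpart of the Prader-Willi and Angelman region. Its genes were read one by one, and no difference between genes of the domain was tested. *Snhg14*, the paternal noncoding host of snoRNAs that continues antisense into *Ube3a*, had 78.7, 77.6 and 84.2 CPM in vehicle and 76.5, 63.8 and 67.2 CPM in SP mice. The groups did not overlap, though SP 1 was only just below vehicle 2. Its log2 fold change was −0.22 ± 0.069 (95% interval −0.38 to −0.054, unadjusted p = 0.0158, edgeR FDR = 0.415), and the value depended on which mice were kept. It was −0.29 (unadjusted p = 0.000944) without SP 1 and the block, −0.16 (unadjusted p = 0.0395) without SP 2 and the block, and −0.16 (unadjusted p = 0.0868) without the third pair. *Snrpn*, whose promoter region lies upstream of *Snhg14* on the same strand, had 569, 578 and 562 CPM in vehicle and 588, 573 and 592 CPM in SP mice. Its log2 fold change was 0.036 (95% interval −0.094 to 0.16), and the groups overlapped. *Snurf*, an entry inside *Snrpn* on the same strand, was at 0.56 ± 0.43 (unadjusted p = 0.233), and its groups overlapped as well.

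Shorter unnamed transcripts in the same antisense track were then looked up, a choice made after values of the region had been seen. Of 4 other genes on the strand opposite to *Ube3a* and within or beside it, 9330162G02Rik had 35.1, 37.6 and 39.0 CPM in vehicle and 33.8, 29.2 and 30.7 CPM in SP mice (log2 fold change −0.26 ± 0.080, unadjusted p = 0.0138). Gm44560 was at −0.37 ± 0.12 (unadjusted p = 0.0199), Gm44559 at −0.32 and Gm44562 at −0.013. Together with *Snhg14* they summed to 128, 129 and 139 CPM in vehicle and 122.7, 104 and 111 CPM in SP mice, without overlap. Each of these 4 single values had an edgeR FDR of at least 0.412. Further along, 3 tested genes overlapped *Snhg14* on its own strand, and they did not share a sign. A230103L15Rik was at 0.042 ± 0.099 (unadjusted p = 0.685) and Gm44831 at −0.44 ± 0.32 (unadjusted p = 0.204). Gm38393, which also overlaps *Snrpn* on the same strand, was at −0.34 ± 0.13 (unadjusted p = 0.0317). Counts of Gm38393, *Snurf* and *Snrpn* were estimates with fractions, and reads where these entries overlap may not be separated.

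*Ube3a* itself encodes an E3 ubiquitin ligase and is expressed in neurons from the maternal copy only. It had 116.7, 116.3 and 118.6 CPM in vehicle and 112, 108 and 110.0 CPM in SP mice, so that both it and its antisense transcript were lower in every SP mouse. The difference was small, with a log2 fold change of −0.091 (95% interval −0.21 to 0.025, unadjusted p = 0.106). The kit kept strand, but the strand setting of the counting is not given in the sources used here, so reads of *Ube3a* and *Snhg14* where they overlap may not be separated. The same holds for *Ube3a* and the 4 shorter genes on its opposite strand, whose reads may include reads of *Ube3a*. It also holds for *Mest* and *Copg2*, *Kcnq1ot1* and *Kcnq1*, *Airn* and *Igf2r*, *Nap1l5* and *Herc3*, *Zrsr1* and *Commd1*, and *Nnat* and *Blcap*. *Snhg14* held 208 annotated snoRNA genes and *Rian* 13, and 0 of these 221 had a count in any of the poly-A selected libraries.

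Others of this domain belong to the melanoma antigen and makorin families and have no introns or few. *Ndn*, or necdin, a growth suppressor of postmitotic neurons, had 209.8, 227 and 196 CPM in vehicle and 209.6, 159.9 and 224 CPM in SP mice. Only SP 2 lay outside the vehicle range. *Magel2* had 3.15 to 6.02 CPM in SP and 3.87 to 7.64 CPM in vehicle mice, and *Mkrn3*, a ubiquitin ligase gene, had 0.629 to 0.938 and 0.687 to 0.798 CPM. Their log2 fold changes were −0.10, −0.32 and 0.10, each with an interval across 0.

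In the *Dlk1-Dio3* domain on chromosome 12, the maternal copy makes a chain of noncoding RNAs and the paternal copy makes proteins. *Meg3*, first in the chain at chr12:109541001-109571726, had 5671, 6232 and 5992 CPM in vehicle and 5483, 4827 and 5954 CPM in SP mice. The groups overlapped, and the log2 fold change was −0.14 ± 0.096. *Rian*, a snoRNA host further along, had 845, 854 and 847 CPM in vehicle and 803, 663 and 831 CPM in SP mice. Its vehicle values had an SD of only 4.67 CPM, and all SP values were below them (−0.16 ± 0.079, unadjusted p = 0.0882). *Mirg*, the last of the chain and host of most of its microRNAs, had 24.6, 24.4 and 23.7 CPM in vehicle and 27.3, 23.2 and 30.4 CPM in SP mice, with SP 2 again the lowest (0.15 ± 0.092). Without SP 2 and the block, *Mirg* was at 0.25 ± 0.069 (unadjusted p = 0.00529, edgeR FDR = 0.279), but without SP 1 and the block it was at 0.14 (unadjusted p = 0.217) and without the third pair at 0.034 (unadjusted p = 0.743).

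For the paternal protein genes of this domain SP 2 lay apart. *Dlk1*, a transmembrane Notch-like ligand, had 14.2, 17.2 and 14.0 CPM in vehicle and 13.4, 5.19 and 15.4 CPM in SP mice. *Dio3*, the deiodinase that inactivates thyroid hormone, had 8.60, 5.74 and 7.26 CPM in vehicle and 7.46, 1.04 and 6.87 CPM in SP mice. In both, SP 2 was far below all others and SP 1 and SP 3 lay in or near the vehicle range. The log2 fold changes were −0.50 (95% interval −1.23 to 0.23) and −0.68 (−1.56 to 0.19), and without SP 2 and the block they were −0.072 and −0.0042.

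The microRNAs that these noncoding RNAs carry on their own strand were matched in RefSeq: 2 hairpins in *Meg3*, 3 in *Rian* and 14 in *Mirg*, with 1 each in *Usp29*, *Mest* and *H19*, which give 41 mature sequences. Of these, 2 share a seed, GGUUGCC, and both come from *Mirg*. Those are shown with 1 from each of the other noncoding hosts of the chain and with the brain microRNA miR-134-5p, with seeds in capitals. None of the 25 microRNA genes that the annotation places in members of the list had a count in any library, so host RNA is the only readout here.
miR-453: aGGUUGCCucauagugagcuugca
miR-496a-5p: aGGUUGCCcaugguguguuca
miR-134-5p: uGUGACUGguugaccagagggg
miR-370-3p: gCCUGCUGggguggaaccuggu
miR-770-5p: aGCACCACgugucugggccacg

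The proportion of the chain's last RNA to its first was higher in all 3 SP mice, a description that the tests below could not decide at this number of mice. Per 100 reads of *Meg3* there were 0.434, 0.392 and 0.396 reads of *Mirg* in vehicle and 0.498, 0.480 and 0.511 in SP mice, and the groups did not overlap. *Rian* per 100 *Meg3* was 14.9, 13.7 and 14.1 in vehicle and 14.7, 13.7 and 13.9 in SP mice, so the middle RNA kept its proportion within the spread. *Mest* per 100 *Copg2* was 33.8, 30.1 and 36.7 in vehicle and 19.8, 21.5 and 29.4 in SP mice, again without overlap. *Snhg14* per 100 *Ube3a* was 67.5, 66.7 and 70.9 in vehicle and 68.4, 58.9 and 61.1 in SP mice, and SP 1 lay within the vehicle range. Of 7 such ratios, 3 did not overlap, those of *Mirg*, *Mest* and *Peg13*. Each of these 3 had p = 0.1 in a two-sided exact permutation test, the smallest p that 3 mice against 3 allow, and 0.233 after Benjamini-Hochberg adjustment over the 7. That test exchanged all 6 mice. An exact permutation test within the replicate pairs, added after seeing the data, gave 0.25 for each, the smallest p that 3 pairs allow. Neither test could give a p below 0.05 here. The plan held these ratios as description without a test, and it did not hold the ratio of *Usp29* to *Peg3*.

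**Figure D4:**
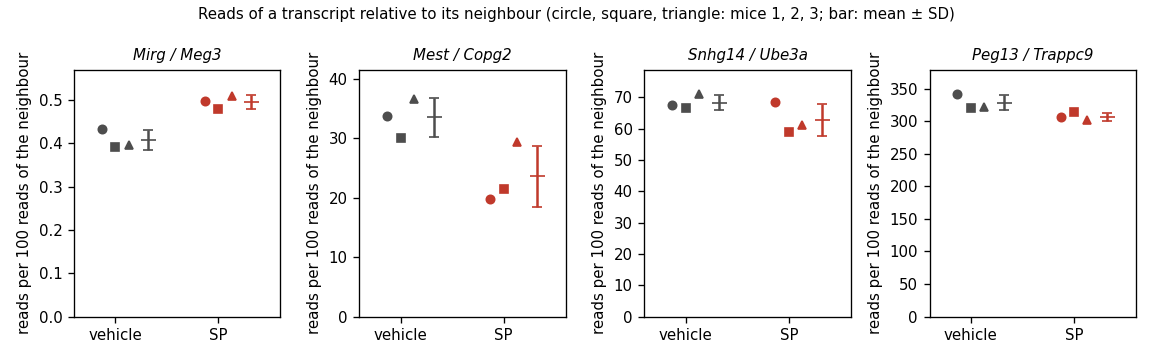
Reads of 1 transcript per 100 reads of a neighbour in the same domain for each mouse (circle, square and triangle for mice 1, 2 and 3), with the mean ± SD. *Mirg* per 100 *Meg3* is higher in all 3 SP mice, at 0.480 to 0.511 against 0.392 to 0.434, and *Mest* per 100 *Copg2* and *Peg13* per 100 *Trappc9* are lower in all 3.

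*Peg13*, a paternal noncoding RNA that lies in an intron of *Trappc9* on the same strand, had 223, 226 and 220 CPM in vehicle and 211, 225 and 217 CPM in SP mice (log2 fold change −0.038, 95% interval −0.15 to 0.077). *Trappc9*, a vesicle tethering gene biased to the maternal copy in brain, had 65.2, 70.5 and 68.3 CPM in vehicle and 68.7, 71.6 and 72.1 CPM in SP mice (0.058, 95% interval −0.066 to 0.18). Each overlapped between groups, while their ratio was 342, 321 and 322 in vehicle and 307, 314 and 301 in SP mice. Intronic reads of *Trappc9* precursor RNA can fall on *Peg13*, and these cannot be told apart in the table.

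*Grb10* and *Ddc* are neighbours on chromosome 11 with opposite signs. *Grb10*, an adaptor that damps insulin and growth factor receptors, is paternal in neurons and maternal in most other cells, and had 38.9, 48.6 and 43.9 CPM in vehicle and 35.1, 28.7 and 44.0 CPM in SP mice. SP 1 and SP 2 lay below the vehicle range and SP 3 within it (−0.30 ± 0.13, unadjusted p = 0.0592). *Ddc*, the decarboxylase that makes dopamine and serotonin from their precursors, had 4.08, 4.001 and 5.22 CPM in vehicle and 5.50, 10.8 and 4.89 CPM in SP mice. SP 2 was above all others (0.61 ± 0.27, unadjusted p = 0.0545, edgeR FDR = 0.502), and the same library held 29.2 CPM of *Tph1*, the serotonin-making hydroxylase of the pineal, against at most 0.597 CPM elsewhere. Without SP 2 and the block, *Ddc* was at 0.22 (95% interval −0.14 to 0.59). The part of pineal RNA in this value was not tested.

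In the *Peg10-Sgce* domain on chromosome 6, the single outlying value was in a vehicle mouse. *Peg10*, a gene derived from a retrotransposon gag, had 26.9, 47.7 and 24.6 CPM in vehicle and 26.0, 18.6 and 29.3 CPM in SP mice. Vehicle 2, the library high in thalamus and cerebellum markers, was above all others, and without the second pair the log2 fold change turned from −0.38 to 0.10. *Sgce*, or epsilon-sarcoglycan, starts 99 bp away on the other strand and had 20.6 to 22.7 CPM in vehicle and 21.01 to 25.3 CPM in SP mice (0.10). *Asb4*, a maternal gene of a ubiquitin ligase adaptor, had 0.430 to 1.46 and 0.639 to 0.996 CPM (−0.027).

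Of the genes without a listed neighbour, *Impact*, a paternal inhibitor of the translation kinase GCN2, had 197, 207 and 200.8 CPM in vehicle and 178, 165 and 199.8 CPM in SP mice. The third pair was nearly equal and the groups overlapped (−0.16 ± 0.068, unadjusted p = 0.0483, edgeR FDR = 0.493). Its log2 fold change was −0.17 (unadjusted p = 0.144) without the first pair and −0.077 (unadjusted p = 0.174) without the second. *Nap1l5* had 245, 261 and 238 CPM in vehicle and 222, 163 and 246 CPM in SP mice (−0.26 ± 0.12, unadjusted p = 0.0725). *Nnat* had 354, 363 and 367 CPM in vehicle and 388, 207 and 382 CPM in SP mice. For *Nnat* SP 2 was the lowest of 6 and the other SP mice were the highest, so that the log2 fold change was −0.20 with all mice and 0.092 without SP 2 and the block.

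**Figure D5:**
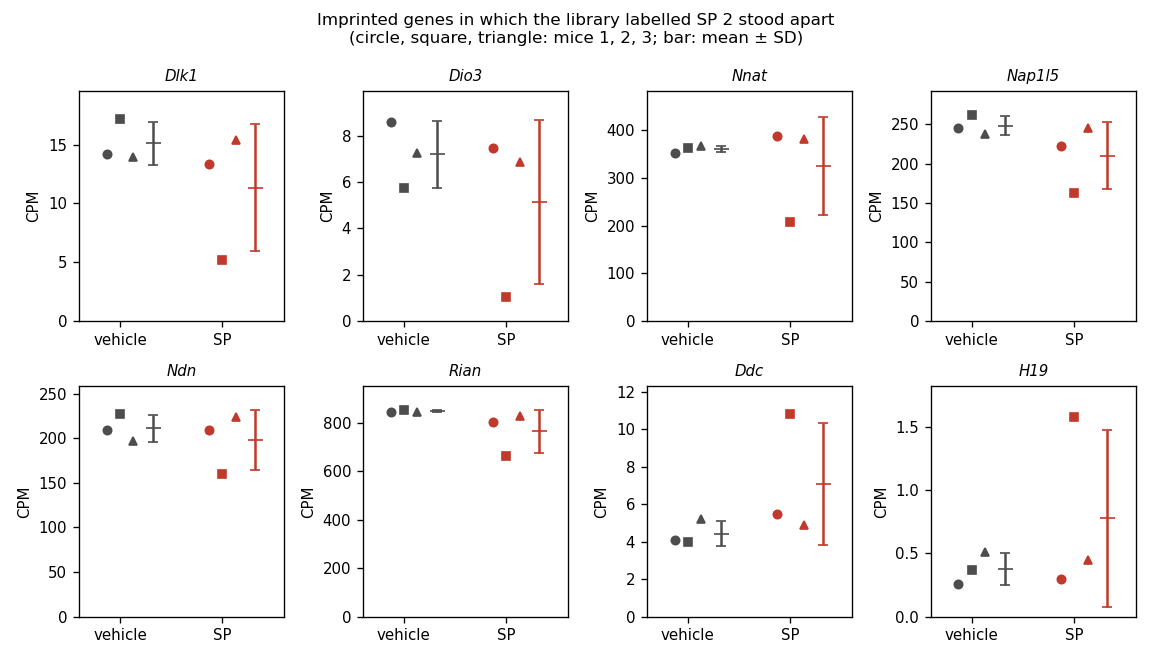
CPM in each mouse (circle, square and triangle for mice 1, 2 and 3) with the mean ± SD for 8 imprinted genes in which the library labelled SP 2 was the lowest or highest of 6. The square of SP 2 lies apart from the other SP mice, below them in *Dlk1*, *Dio3*, *Nnat*, *Nap1l5*, *Ndn* and *Rian* and above them in *Ddc* and *H19*.

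The remaining 5 genes had intervals that crossed 0. *Gnas* had 1117, 1198 and 1090 CPM in vehicle and 1162, 1138 and 1205 CPM in SP mice (0.042, 95% interval −0.12 to 0.20). The intervals of the inositol phosphatase gene *Inpp5f* (−0.033, −0.15 to 0.089) and the splicing factor gene *Zrsr1* (0.029, −0.11 to 0.17) lay within ±0.3. *Plagl1*, a zinc finger gene of growth arrest, was at −0.13 (−0.33 to 0.071), with 35.2 to 35.9 CPM in vehicle and 28.2 CPM in SP 2. *Airn*, the noncoding RNA antisense to *Igf2r*, had 0.639 to 1.72 CPM over all 6 mice, a level at which −0.31 was not distinguishable from 0 (−1.18 to 0.55).

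Genes were sorted by the parent assigned to each from textbook knowledge, and *Trappc9*, biased to the maternal copy in brain, was counted as maternal. The assignment was not checked in these mice. The 20 paternal genes were at a median of −0.21 on the log2 scale. The 10 maternal genes had a median of −0.059. At an unadjusted p below 0.05, 5 paternal genes and 1 maternal gene were lower and 0 of either were higher. Over all tested genes 5.59% were lower and 4.48% higher. The other 4 genes, whose imprinting depends on cell type or transcript, had a median of 0.0046, with 0 at that threshold in either direction. The summed CPM of the paternal genes was 2495, 2615 and 2505 in vehicle and 2446, 2065 and 2533 in SP mice. That of the maternal genes, most of which was *Meg3*, was 6814, 7392 and 7140 in vehicle and 6574, 5789 and 7093 in SP mice. Both sums overlapped between groups, with SP 2 the lowest of each. The median log2 ratios of replicate pairs 1, 2 and 3 were −0.075, −0.35 and 0.015 for paternal genes. For maternal genes they were −0.055, −0.23 and −0.018. A difference between the parents was not tested.

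The other imprinted genes of the mouse and the factors that keep imprints were read in the same test. Further imprinted genes numbered 42, of which 33 were tested, with a median log2 fold change of −0.084 and 0 called. At an unadjusted p below 0.05, 5 were lower (15.2%) and 0 higher. Over all tested genes 5.59% were lower and 4.48% higher, and 0.0293% were called. *Igf2*, a growth factor gene, had 189, 192 and 261 CPM in vehicle and 93.4, 125 and 188 CPM in SP mice, without overlap (−0.70 ± 0.099, unadjusted p = 0.000151, edgeR FDR = 0.231). Like *Mest* and *Cdkn1c* it was lowest in SP 1. The 10 markers of leptomeningeal fibroblasts, cells known to express *Igf2*, summed to 117 to 121 CPM in vehicle mice. In SP mice 1, 2 and 3 they summed to 115, 94.4 and 98.4 CPM, so SP 1 was the highest of the SP mice. The choroid plexus markers summed to 3844 to 4800 CPM in vehicle and to 180, 2851 and 4010 CPM in SP mice 1, 2 and 3. The part of either tissue in the *Igf2* values was not tested. The actin nucleator gene *Cobl* was at −0.69, the paraoxonase *Pon3* at −0.97, the amino acid transporter *Slc38a4* at −0.71 and the zinc finger gene *Zdbf2* at −0.27. Of 30 factors of imprint maintenance and DNA methylation 26 were tested, with a median of −0.017 and 0 called. At an unadjusted p below 0.05, 3 were lower (11.5%) and 0 higher, beside the same shares of all tested genes. *Tet1*, a dioxygenase that oxidises 5-methylcytosine, had 14.4, 14.9 and 14.4 CPM in vehicle and 9.33, 12.5 and 11.4 CPM in SP mice (−0.40 ± 0.10, unadjusted p = 0.00461, edgeR FDR = 0.347), its relative *Tet2* was at −0.17 and the chromatin remodeller gene *Atrx* at −0.15. *Zfp57* had 13.1, 12.3 and 12.8 CPM in vehicle and 12.4, 8.14 and 11.8 CPM in SP mice (−0.26 ± 0.12, unadjusted p = 0.0666), and its corepressor gene *Trim28* was at 0.060.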

How the data were processed

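Stranded mRNA libraries were made from the hippocampus of 3 SP and 3 vehicle mice. The authors trimmed reads with Trim Galore, aligned them to GRCm38 with STAR and deposited estimated counts per gene from Salmon, in 1 table with a column for each mouse. The annotation release and counting strand are not given in the sources used here. The columns headed as controls are the mice labelled vehicle.

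Counts were rounded and tested with edgeR 4.0.16 in R 4.3.3 (filterByExpr, minimum count 10 and minimum total 15, TMM, quasi-likelihood F-test, Benjamini-Hochberg adjustment over 17069 genes). The fit was tested on simulated data first. The replicate number was a block because the labels call it a batch. Deviations from the group means of same-numbered mice correlated at r = 0.0140, −0.0656 and 0.0734 across genes. These values are near 0, so same-numbered mice shared little of their deviation. Each library is 1 mouse. With the block, p-values rest on how the difference of SP and vehicle varied between the 3 pairs, with the spread moderated over all tested genes. Without the block they rest on the spread between mice of a group. At the depth of these libraries 3 counts are 0.109 to 0.135 CPM.

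Alternatives were no block, DESeq2 1.42.0 with and without the block, limma-voom (limma 3.58.1), other scalings, other filters, other thresholds and leaving out each replicate number. Leaving out SP 1 or SP 2 alone, without the block, was chosen after seeing the data. Lengths and positions came from GENCODE M21, which held 55240 of 55421 identifiers, and sequences from RefSeq on GRCm38.p6. The imprinted genes, the other lists, the marker lists and the tests were chosen with earlier results of these data known. All 34 genes are described, and of each other list those at an unadjusted p below 0.05, with *Zfp57* and *Trim28* named after their values were seen.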

Additional observations from a re-analysis of the deposited data

How the results depend on the processing

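The sign of the log2 fold change was kept in 360 of 372 values of the 34 genes over 11 alternatives. It turned by DESeq2 with the block in *Asb4* (0.033). Without 1 replicate number the values ranged from −0.24 to 0.33 in *Asb4*, −0.030 to 0.31 in *Mkrn3*, −0.018 to 0.088 in *Zrsr1*, −0.69 to 0.20 in *Airn*, −0.86 to 0.030 in *Dlk1*, −0.26 to 0.093 in *Ndn*, −0.79 to 0.15 in *Magel2*, −0.71 to 0.10 in *Peg10*, −0.38 to 0.095 in *Nnat*, −0.026 to 1.08 in *H19* and −0.012 to 0.10 in *Gnas*. Imprinted genes called stayed at 0 except with no filter, where *Mest* and *Cdkn1c* were called, both lower (2 genes), in a fit that called 384 genes over the table. All genes called were 5, against 2 with no replicate block or by limma-voom, 36 by DESeq2 with the block, 132 by DESeq2 with no replicate block, 0 with at least 10 counts in every library, 0 at FDR below 0.05 and 9 to 36 without 1 replicate number. Imprinted genes at an unadjusted p below 0.05 and lower were 6, against 7 with no replicate block, 10 by DESeq2 with no replicate block, 14 with no filter and 4 to 11 without 1 replicate number. Higher were 0, against 1 with no replicate block, by DESeq2 with no replicate block, by limma-voom and with no filter (*Ddc* in each), 0 to 1 without 1 replicate number, 3 without SP 1 and 2 without SP 2. The median of the 34 genes was −0.21 to −0.018 without 1 replicate number, −0.061 without SP 2 and −0.14 without SP 1. That of the other imprinted genes was −0.15 with no filter and −0.091 to −0.041 without 1 replicate number. The cause was not tested. *Peg3* was below an unadjusted p of 0.05 in 13 of 13 other fits, *Mest*, *Snhg14* and *Kcnq1ot1* in 12, *Cdkn1c* in 10 and *Impact* in 8. With 3 mice a group, 7 genes had under 100 counts in some library, and the 95% interval reached beyond ±1 on the log2 scale for 7 of the 34.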
